A study of Mus musculus with 29 samples.

Results

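The endothelial cell marker genes are a list of 35 genes that vascular endothelial cells transcribe, found in the table by their gene symbols. They cover endothelial junctions and surface proteins, receptors, surface mucins and secreted proteins, adhesion molecules, transcription factors and genes of arterial or venous identity. All 35 were found among the 29955 gene symbols of the expression table, and 33 passed the minimum of a mean of 0.5 FPKM over the libraries used. FPKM, the fragments of a gene scaled to its length and to the size of the library, is the unit of every level below. The endothelial selectins Sele and Selp were under the minimum and are given by value only.

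The mice were male C57BL/6J wild type animals, 3 months old at the start. Over 5 weeks, heart failure (HF) was brought about by 0.3 mg/ml L-NAME, which blocks nitric oxide synthases, and 1% NaCl in the drinking water, plus angiotensin II at 0.7 mg/kg/day from a 28-day pump placed after the first week. The HF groups were sampled during induction, HF week 3 with 2 libraries and, at its end, HF week 5 with 3 libraries. Recovery groups were mice taken after the agents had stopped, at week 7 (2 libraries), week 9 (2), week 11 (3), week 13 (2) and week 19 (5), counted from the start of induction. The control group used is untreated mice of week 19 (5 libraries). Week 5 controls are labelled too, but 5 columns carry their name for 4 labelled samples, so these columns were not used. HF week 5 mice were thus 14 weeks younger than the controls used, and age and treatment cannot be told apart there. Weeks 7 to 13 are pooled below as the mean of their 4 group means, over 9 libraries. The labels call the tissue whole heart or whole ventricle, and the methods state that the frozen apical part of the heart was used for RNA. The animals came from 4 cohorts, and which library came from which cohort is not given in the sources used here. The methods give 5 mice per time point and do not say whether each library is 1 mouse, so the p-values below measure only the spread between these libraries, which may be technical. In whole tissue, fewer cells of a type and less RNA per cell cannot be told apart.

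Endothelial cells line every blood vessel and, in the myocardium, form a dense capillary bed around the muscle cells. They hold together through junction proteins, carry a coat of sialomucins on the blood side, and store von Willebrand factor for haemostasis. Their identity is kept by ETS, SOX and GATA-binding factors, while blood flow induces Klf2 and Klf4 and inflammatory cytokines induce the adhesion molecules that capture leukocytes. Nitric oxide made by endothelial cells is the signal that L-NAME removes.

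Some libraries stood apart. Myl7, the atrial myosin light chain, was at 1805 and 5773 FPKM in the HF week 3 libraries, at 18388 in HF week 5 replicate 1, at 152 in replicate 2 and at 6.16 in replicate 3. It was at 3.56 FPKM or less in each of the other 19 libraries. The atrial genes Sln and Myl4 had the same order among the HF week 5 libraries (Sln 9904, 147 and 1.29 FPKM, Myl4 11435, 116 and 8.05 FPKM). The methods state apical tissue, and whether the HF week 3 libraries and HF week 5 replicates 1 and 2 held atrial tissue was not tested. The atrial genes were chosen after their values were seen. The mesothelial marker sum (Msln, Upk3b, Krt19, Krt18, Krt8 and Wt1, genes of the heart's outer lining) was 82.4 and 244 FPKM in HF week 3, ranged from 11.8 to 88.8 FPKM in HF week 5, and was between 2.19 and 3.55 FPKM in the controls. The counts of called members that rest on HF week 5 are therefore given with and without replicate 1, and the part of atrial or mesothelial tissue in the members' levels was not tested. Myh6 was listed at 0 in 13 of the 24 libraries, all those of weeks 5 and 19, although every adult heart muscle cell uses this gene, so these zeros may be failed estimates. The 10 highest genes took 14.6% to 18.8% of the FPKM sum there, against 27.9% to 37.5% in Recovery weeks 7 to 13 and HF week 3 replicate 2. The depth of the libraries is unknown, and the low values give a relative depth between 0.728 and 1.40 in the 23 libraries where it could be read, the reference library included. Some readings rest on as few as 10 genes, and only ratios within a set range were searched. HF week 3 replicate 1 gave no reading.

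Promoter sequence was available for 20 of the 35 members (RefSeq, GRCm38.p6), as the 250 bases before each start site. Those shown are 4 of the 6 windows of genes with an entry that were higher in HF week 5 and lower again in Recovery week 19. Capitals mark the ETS core searched, AGGAAG or CGGAAG on either strand, the letters that endothelial ETS factors such as Erg and Fli1 can bind.
Emcn promoter, chr3:137340828-137341077, plus strand: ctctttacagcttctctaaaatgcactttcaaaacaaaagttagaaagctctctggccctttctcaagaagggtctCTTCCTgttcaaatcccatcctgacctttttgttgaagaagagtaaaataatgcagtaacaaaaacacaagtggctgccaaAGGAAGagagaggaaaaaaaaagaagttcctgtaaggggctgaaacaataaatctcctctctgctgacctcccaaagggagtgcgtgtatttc
Egfl7 promoter of the first start, chr2:26580833-26581082, plus strand: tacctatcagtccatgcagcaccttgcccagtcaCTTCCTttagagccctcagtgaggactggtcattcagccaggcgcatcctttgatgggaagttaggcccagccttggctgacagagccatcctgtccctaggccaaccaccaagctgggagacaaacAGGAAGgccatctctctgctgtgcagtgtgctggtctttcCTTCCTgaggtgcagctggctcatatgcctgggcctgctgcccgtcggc
Egfl7 promoter of the second start, chr2:26583615-26583864, plus strand: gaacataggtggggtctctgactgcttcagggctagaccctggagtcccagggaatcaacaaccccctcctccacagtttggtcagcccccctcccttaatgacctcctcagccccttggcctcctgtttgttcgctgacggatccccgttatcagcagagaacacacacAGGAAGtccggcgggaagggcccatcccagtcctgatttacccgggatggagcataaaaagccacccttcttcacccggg
Cldn5 promoter, chr16:18776597-18776846, plus strand: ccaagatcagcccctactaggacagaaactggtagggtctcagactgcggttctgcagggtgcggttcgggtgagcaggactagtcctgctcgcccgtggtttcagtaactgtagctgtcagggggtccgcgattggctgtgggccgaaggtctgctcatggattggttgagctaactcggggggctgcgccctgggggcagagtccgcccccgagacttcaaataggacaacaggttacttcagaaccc

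The Emcn window held 2 matches, the Egfl7 windows 3 and 1, and the Cldn5 window 0. The windows not shown, of another Egfl7 start and of Efnb2, each held 0. Of the 25 promoters of the 20 members, 12 held at least 1 match (48.0%), against 39.2% of the 32851 promoters in the reference. The SOX letters AACAAT were in 2 of the 25 (8.0% against 9.42% of all promoters). The GATA letters AGATAA or TGATAA were in 4 (16.0% against 16.6%) and the KLF letters CCACCC in 7 (28.0% against 28.1%). All were searched on both strands, and a match describes these letters only. Vwf and Podxl had no entry.

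The first comparison asked how the members stood at the end of induction, HF week 5 against the week 19 controls. Of the 33 members tested, 14 were higher and 0 lower (limma adjusted p under 0.05), where 11.6% of all 12759 genes tested were higher and 12.4% lower. Differences are given on the log2(FPKM + 0.5) scale with their standard error. The members' median difference was 0.49, against 0.04 over all genes tested. At an unadjusted p under 0.05, the threshold the study used, 19 members were higher and 0 lower (18.8% and 17.7% of all genes). The ranges of the groups did not overlap for 11 members that were higher and 1 that was lower (14.8% and 14.7% of all genes). The heat map of the members by library shows the shift in the HF columns and its absence in part of the rows.

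**Figure D1:**
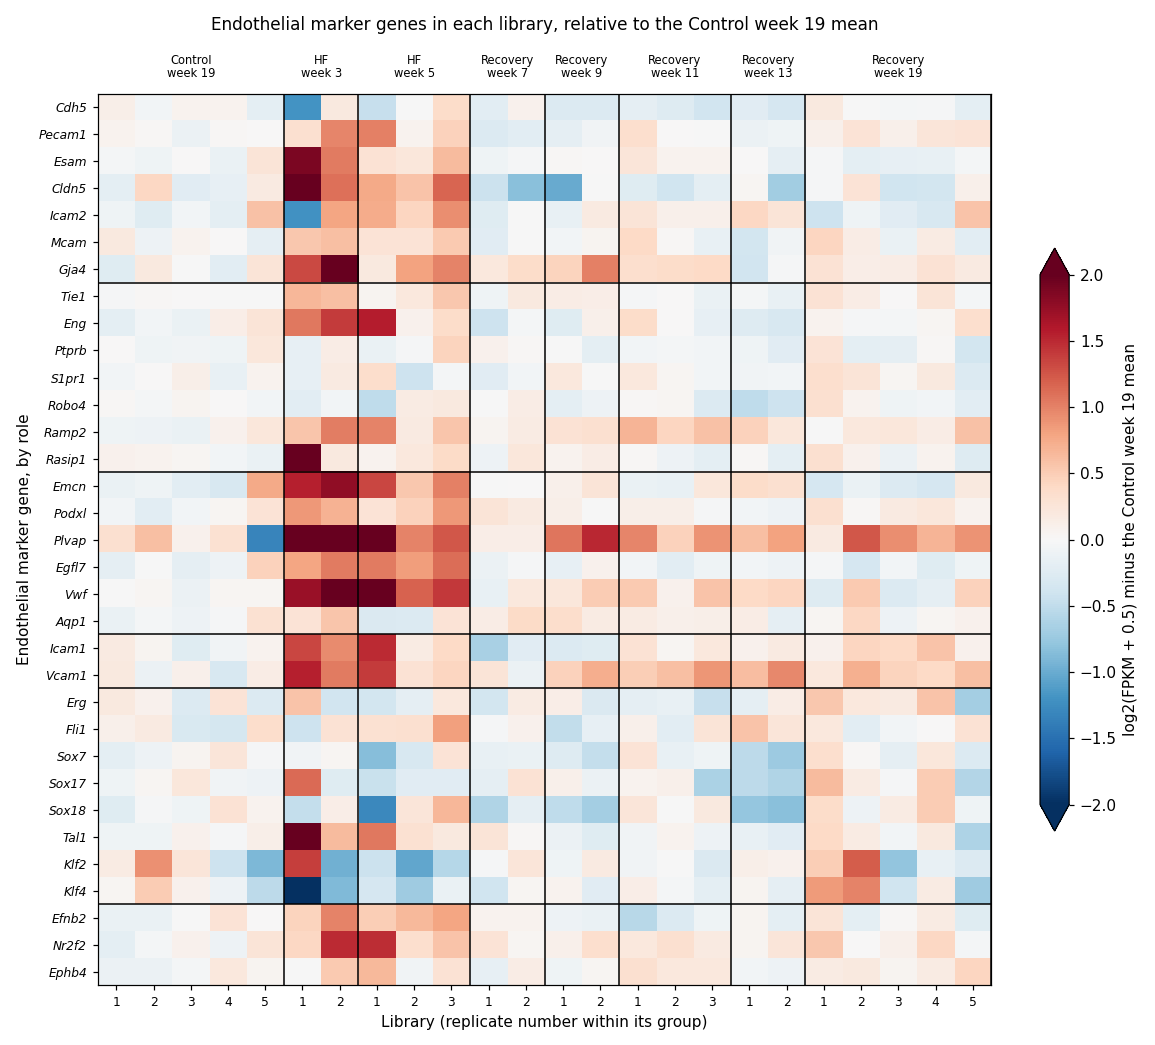
Each row is a member and each column a library, grouped by role and by group; the colour is the log2(FPKM + 0.5) difference from the mean of the 5 Control week 19 libraries. Most rows of junction, mucin and secreted genes are above the controls in the HF week 3 and HF week 5 columns, and the transcription factor rows are mixed.

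Of the 6 surface mucin, diaphragm, secreted and channel genes, 5 rose (Emcn, Podxl, Plvap, Egfl7 and Vwf) and Aqp1 did not pass the test (-0.10 ± 0.15 log2). Their median difference was 0.98, and 4 of the 6 were called without HF week 5 replicate 1, Plvap not.

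Vwf encodes von Willebrand factor, the large glycoprotein that endothelial cells store and release to bind platelets. Its level was 17.5, 18.1, 16.2, 18.0 and 18.0 FPKM in the controls. In HF week 5 it was 157, 40.2 and 47.6 FPKM. All HF week 5 libraries were above all controls, with replicate 1 over 3 times the other HF week 5 libraries. The means were 81.6 ± 65.4 FPKM (SD, n = 3) and 17.6 ± 0.816 FPKM (SD, n = 5), and the difference was 1.90 ± 0.31 log2 (limma adjusted p = 0.000403). Without replicate 1 it was 1.29 ± 0.23 log2 (limma adjusted p = 0.00175). Megakaryocytes and platelets also hold Vwf, and the sum of 8 platelet genes was 66.9 to 134 FPKM in HF week 5 and 34.6 to 80.7 FPKM in the controls. Of the 7 tested, 1 was called higher, Itgb3, and 0 without replicate 1. The median difference of these genes with all libraries was 0.90 log2. Their part in the Vwf level was not tested.

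Egfl7, a secreted protein of endothelial cells that guides vessel tube formation, was at 182, 158 and 192 FPKM in HF week 5. The controls were at 78.4, 87.6, 77.7, 82.8 and 123 FPKM. The 3 HF libraries lay close together and all above the controls, of which replicate 5 was the highest. The difference was 1.00 ± 0.13 log2, a ratio of means of 1.98 (limma adjusted p = 8.36e-05), and 0.97 ± 0.15 log2 without replicate 1 (limma adjusted p = 0.000904).

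Emcn encodes endomucin, a sialomucin of capillary and venous endothelium. It was at 80.3, 45.8 and 64.0 FPKM in HF week 5, and at 28.6, 29.5, 27.2, 25.1 and 53.4 FPKM in the controls. The ranges overlapped through Control week 19 replicate 5 alone. The difference was 0.96 ± 0.20 log2 (limma adjusted p = 0.00261), or 0.77 ± 0.22 without HF week 5 replicate 1 (limma adjusted p = 0.0321). Podxl, the sialomucin podocalyxin, was at 27.0, 30.9 and 41.1 FPKM against 21.4, 19.2, 21.4, 22.96 and 27.0 FPKM (0.53 ± 0.12 log2, limma adjusted p = 0.00424), and the difference was 0.67 ± 0.13 without replicate 1 (limma adjusted p = 0.00305).

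Plvap forms the diaphragms of fenestrae and caveolae and is sparse in the continuous capillaries of healthy myocardium. It was at 58.2, 12.6 and 15.02 FPKM in HF week 5, against 7.75, 9.47, 6.48, 7.65 and 2.15 FPKM in the controls. All HF week 5 libraries exceeded all controls, replicate 1 by far the most. The difference was 1.80 ± 0.41 log2 (limma adjusted p = 0.00451). Without replicate 1 it was 1.12 ± 0.37 log2 and the call was lost (limma adjusted p = 0.0575). When HF week 3 was left out of the fit as well, Plvap was called higher. The Plvap gene overlaps Gtpbp3 in RefSeq and Eng overlaps Fpgs, and whether reads were counted by strand is not given in the sources used here.

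**Figure D2:**
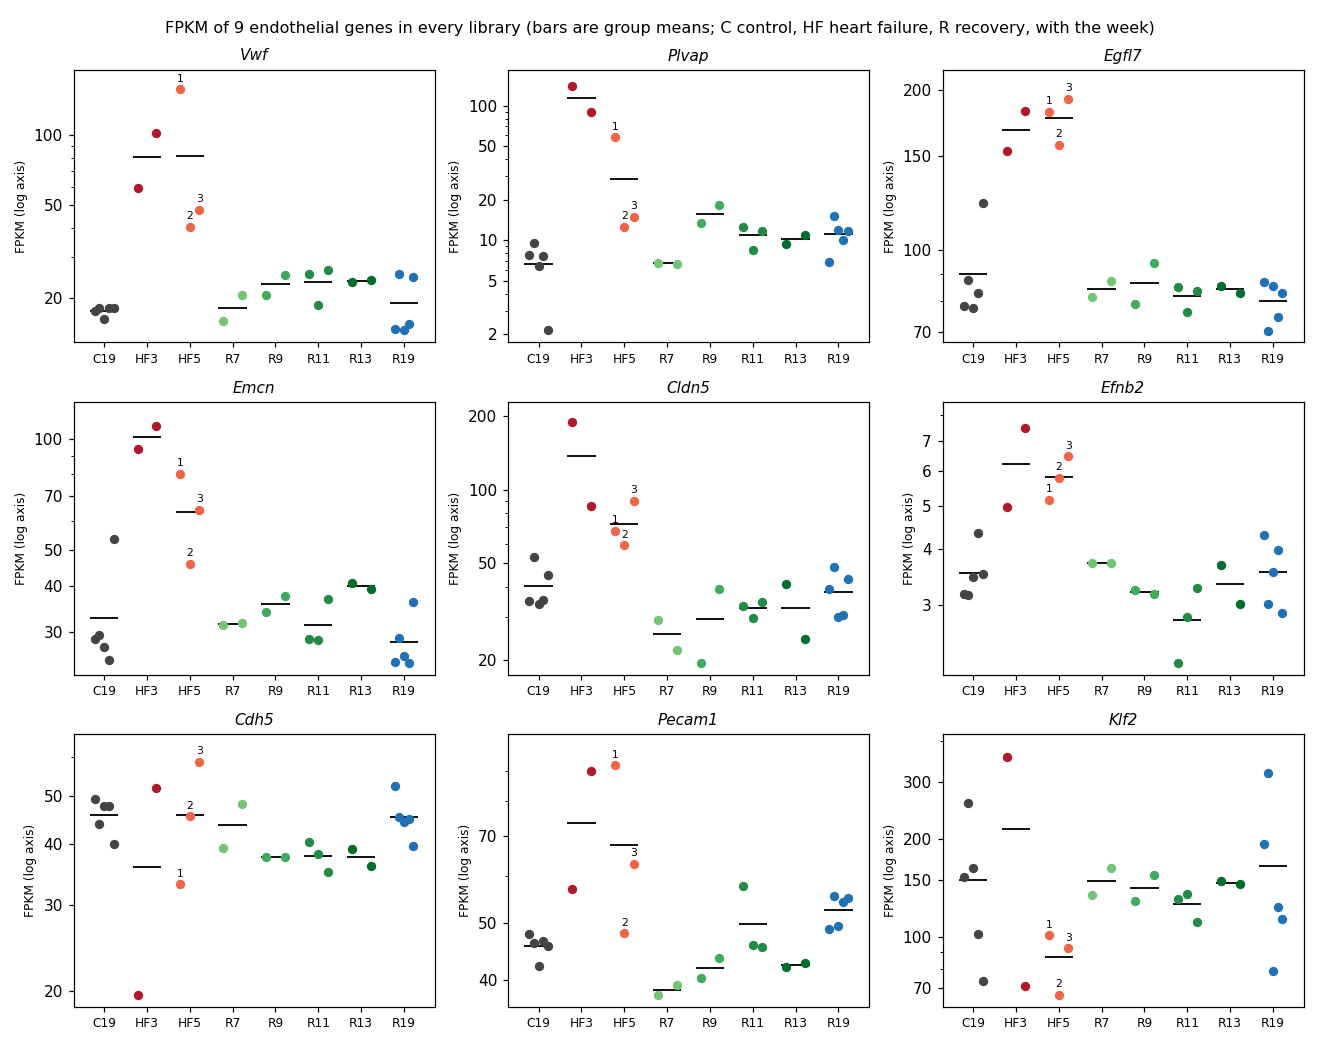
FPKM (log axis) of 9 members in each library, by group; points are libraries and the horizontal lines are group means. Vwf, Egfl7 and Emcn are high in the HF week 3 and week 5 groups and lower from week 7 on, Plvap is high in HF week 3 and in HF week 5 replicate 1, while Cdh5 and Klf2 overlap the controls in HF week 5.

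Among the 7 junction and pan-endothelial surface genes, 3 rose (Cldn5, Gja4 and Pecam1), with a median difference of 0.51 over the 7. Cldn5, the main claudin of endothelial tight junctions, was at 67.9, 59.1 and 89.8 FPKM in HF week 5. In the controls it was at 34.9, 53.1, 33.9, 35.3 and 44.9 FPKM. The groups did not overlap, and replicate 3 rather than replicate 1 was the highest. The difference was 0.83 ± 0.26 log2 (limma adjusted p = 0.0263), and the call was lost without HF week 5 replicate 1 (0.87 ± 0.31 log2, limma adjusted p = 0.0769) and without replicate 3 (limma adjusted p = 0.122). Cldn5 was called higher when HF week 3 was left out of the fit along with replicate 1.

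Gja4, the arterial gap junction protein connexin 37, was higher by 0.67 ± 0.19 log2 (limma adjusted p = 0.0175), and by 0.90 ± 0.20 without replicate 1, in which it was lowest of the 3 at 11.8 FPKM. Pecam1, or CD31, the platelet and endothelial adhesion molecule, was at 92.0, 48.0 and 62.8 FPKM. Its controls were at 47.8, 46.2, 42.2, 46.5 and 45.7 FPKM. HF week 5 replicate 2 was only just above the highest control. The difference was 0.51 ± 0.16 log2 (limma adjusted p = 0.0261) and fell to 0.26 ± 0.14 without replicate 1 (limma adjusted p = 0.262).

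Cdh5 encodes VE-cadherin, the adhesion molecule of endothelial adherens junctions. It was at 33.0, 45.5 and 58.7 FPKM in HF week 5 and at 49.4, 43.8, 47.8, 47.8 and 39.8 FPKM in the controls. The HF libraries lay on both sides of the controls, with replicate 1 lowest. The means were 45.7 ± 12.8 FPKM (SD, n = 3) and 45.7 ± 3.88 FPKM (SD, n = 5), and the difference was -0.03 ± 0.21 log2, with a 95% interval from -0.48 to 0.41 (limma adjusted p = 0.925). Without replicate 1 it was 0.18 ± 0.23 log2 (limma adjusted p = 0.668). Esam, another junction adhesion molecule, was at 67.2, 64.3 and 85.2 FPKM against 53.3, 51.6, 55.1, 50.1 and 65.5 FPKM (0.38 log2, limma adjusted p = 0.0586). Icam2 (0.70 log2) and Mcam (0.36 log2) also missed the threshold, and all of these did without replicate 1. Esam and Icam2, but not Mcam, were called higher when HF week 3 was left out of the fit along with replicate 1.

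Of the 7 receptor and signalling genes, 2 rose, Eng and Ramp2, and the median was 0.22. Eng, the TGF-beta co-receptor endoglin, was at 223, 79.0 and 96.1 FPKM, against 64.7 to 89.3 FPKM in the controls. HF week 5 replicate 2 lay within the control range. The difference was 0.67 ± 0.23 log2 (limma adjusted p = 0.0405), and 0.22 ± 0.17 without replicate 1 (limma adjusted p = 0.428). The call was lost in 10 of the 20 other settings. Ramp2, the co-receptor for adrenomedullin, was higher by 0.57 ± 0.16 log2 (limma adjusted p = 0.0145), and by 0.36 ± 0.16 without replicate 1 (limma adjusted p = 0.15). The angiopoietin pathway receptor Tie1 differed by 0.27 log2 with all libraries and rose by 0.38 ± 0.11 without replicate 1 (limma adjusted p = 0.0333). The phosphatase Ptprb (0.10), the sphingosine 1-phosphate receptor S1pr1 (-0.03), the guidance receptor Robo4 (-0.05) and the Ras-interacting protein Rasip1 (0.22) did not pass the test.

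Both adhesion molecules that passed the minimum rose. Icam1, which binds leukocyte integrins, was at 25.9, 9.97 and 11.8 FPKM in HF week 5 and at 7.40 to 10.1 FPKM in the controls (0.69 ± 0.21 log2, limma adjusted p = 0.025). Vcam1, the ligand of VLA-4 on leukocytes, was at 15.6, 7.01 and 7.79 FPKM against 6.53, 5.13, 6.04, 4.41 and 6.29 FPKM (0.71 ± 0.21 log2, limma adjusted p = 0.0186). In both genes replicate 1 was over 1.5 times each other HF week 5 library, and both calls were lost without it (Icam1 0.28 log2, limma adjusted p = 0.278; Vcam1 0.36 log2, limma adjusted p = 0.212). The selectins, which cytokines induce on activated endothelium, stayed near 0. Sele was at 0.452, 0.0718 and 0.0766 FPKM in HF week 5, with controls from 0.0418 to 0.215 FPKM. Selp was at 0.545, 0.120 and 0.0550 FPKM, with controls from 0.0385 to 0.135 FPKM. Of 9 tested genes of a cytokine and NF-kB list, 3 were higher (Birc3 0.76, Csf1 0.60 and Relb 0.50 log2), and without replicate 1 only Csf1 was.

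None of the 8 endothelial transcription factors was called, and their median difference was -0.21, or 0.00 without replicate 1. At an unadjusted p under 0.05, Fli1 was the only one past it (0.49 log2, higher). The ETS factor Erg (-0.11), the F-group SOX factors Sox7 (-0.29), Sox17 (-0.30) and Sox18 (-0.13) and the haemato-endothelial factor Tal1 (0.52) had adjusted p over 0.05. In Sox17 the groups did not overlap, with 11.04, 12.9 and 12.9 FPKM in HF week 5 against 14.1 to 17.8 FPKM in the controls. Nor did they in Tal1, in the other direction, with 3.06, 1.62 and 1.46 FPKM against 1.11 to 1.37 FPKM. Sox18 varied widely among the HF week 5 libraries, at 21.4, 63.0 and 84.3 FPKM.

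Klf2, the flow-induced factor of quiescent endothelium, was at 101.4, 66.6 and 92.7 FPKM in HF week 5. The controls were at 153, 258, 163, 102 and 73.6 FPKM, a spread over 3 times wide. The difference was -0.68 ± 0.45 log2 (limma adjusted p = 0.291), or -0.80 ± 0.53 without replicate 1. Klf4, its relative, was at 17.4, 13.3 and 20.1 FPKM against 22.7, 31.5, 23.4, 20.5 and 15.2 FPKM (-0.39 log2, limma adjusted p = 0.412). The control with the highest Klf2 and Klf4, replicate 2, was also the highest in the immediate early gene Fos (47.3 FPKM, against 1.28 to 15.1 in the other controls). Across the 21 libraries without HF week 3 and HF week 5 replicate 1, Pearson's r was 0.76 between Klf4 and Fos and 0.83 between Klf2 and Klf4. Over all 24 libraries these were 0.59 and 0.23. The r of Klf4 over the 21 was 0.81 with Jun, 0.76 with Junb and 0.62 with Egr1, but 0.08 with Atf3.

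Of the 3 genes of arterial and venous identity, 2 rose. Efnb2, the ephrin of arterial endothelium, was at 5.17, 5.79 and 6.46 FPKM in HF week 5. The controls were at 3.18, 3.16, 3.47, 4.35 and 3.52 FPKM, all lower. The difference was 0.65 ± 0.15 log2 (limma adjusted p = 0.00461), and 0.72 ± 0.17 without replicate 1 (limma adjusted p = 0.0122). Nr2f2, the venous factor COUP-TFII, was at 8.37, 3.49 and 4.19 FPKM against 2.27 to 3.29 FPKM (0.79 ± 0.23 log2, limma adjusted p = 0.0186), and was not called without replicate 1 (0.45 ± 0.22, limma adjusted p = 0.204). Ephb4, the venous receptor of Efnb2, differed by 0.29 log2 (limma adjusted p = 0.151).

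Replicate 1 of HF week 5 thus carried part of the comparison. It was over 1.5 times both other libraries in 7 members (Eng, Plvap, Vwf, Icam1, Vcam1, Tal1 and Nr2f2), as in 9.89% of all genes tested, and below both by over 1.5 times in 4 (Gja4, Robo4, Sox7 and Sox18), as in 9.15%. Without it, 7 members were higher (Gja4, Tie1, Emcn, Podxl, Egfl7, Vwf and Efnb2) and 0 lower, with 4.21% of all genes higher and 6.45% lower. With HF week 5 replicates 2 and 3 alone and HF week 3 left out of the fit, 12 members were higher (8.86% of all genes). They were those 7 with Esam, Cldn5, Icam2, Plvap and Fli1. In replicate 3, the lowest of the HF week 5 libraries in atrial genes, the members' median difference from the control mean was 0.46, against 0.02 over all genes tested. The sum of its atrial genes was 15.5 FPKM, with at most 8.52 FPKM in the controls. A fit with that lone library assumes that it varies like the other groups. Without HF week 5 replicate 3, 11 members were higher and 1 lower, Sox7, with 9.33% of all genes higher and 10.6% lower; Pecam1, Cldn5 and Gja4 were no longer called. In both of replicates 2 and 3, 15 members were above all controls and 1 below them (19% and 17.8% of all genes). Without Control week 19 replicate 5, 17 members were higher (14.2% of all genes). Emcn, Podxl, Egfl7, Vwf and Efnb2 were called higher in each of the 20 other settings tried, Egfl7 with differences from 0.93 to 1.12 log2 and Vwf from 1.29 to 2.27 log2. The calls of Pecam1, Cldn5 and Icam1 were each lost in 5 of these settings, that of Vcam1 in 4, those of Ramp2 and Nr2f2 in 3, and those of Gja4 and Plvap in 2.

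**Figure D3:**
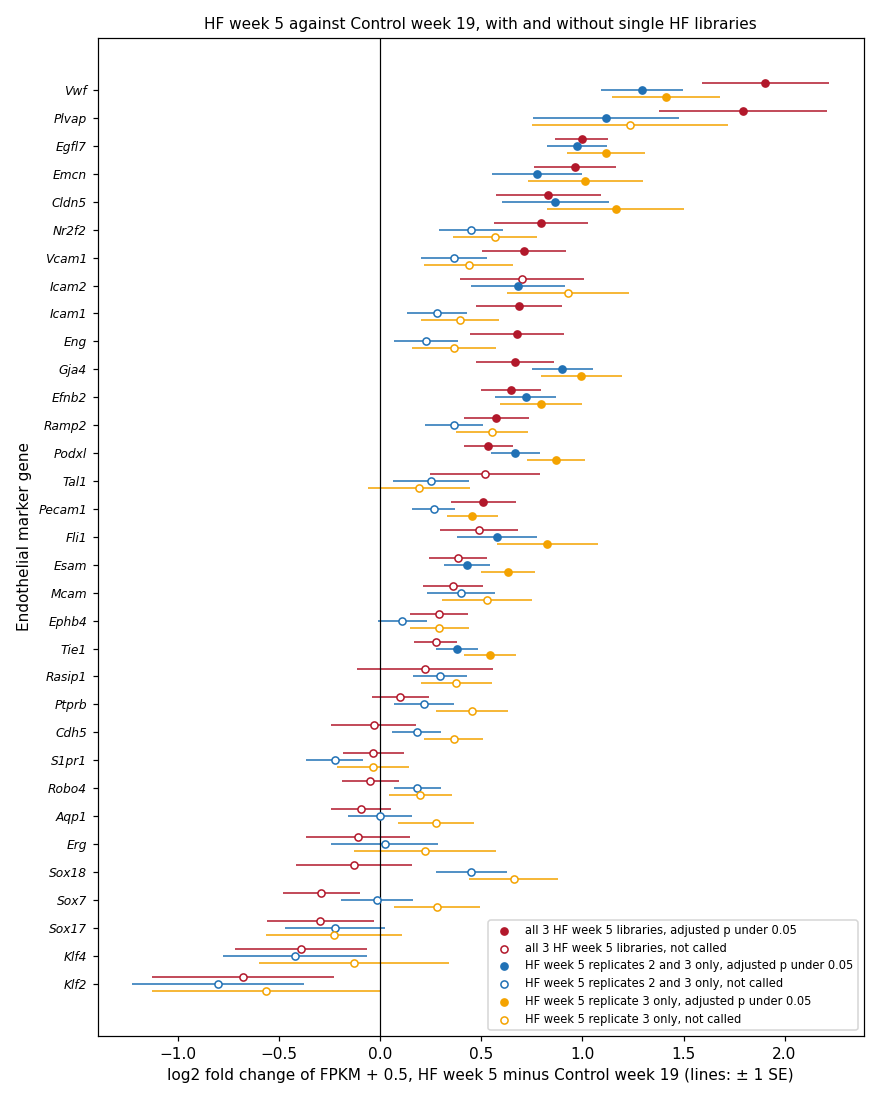
Difference between HF week 5 and Control week 19 (log2 of FPKM + 0.5, ± 1 SE) for each of the 33 members, with all 3 HF week 5 libraries, with replicates 2 and 3 only, and with replicate 3 only. Both versions with fewer HF week 5 libraries also leave HF week 3 out of the fit, which changes the spread used. Egfl7, Vwf and Emcn stay to the right of 0 in all versions, whereas Eng, Icam1 and Vcam1 move toward 0 when replicate 1 is left out.

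**Figure D4:**
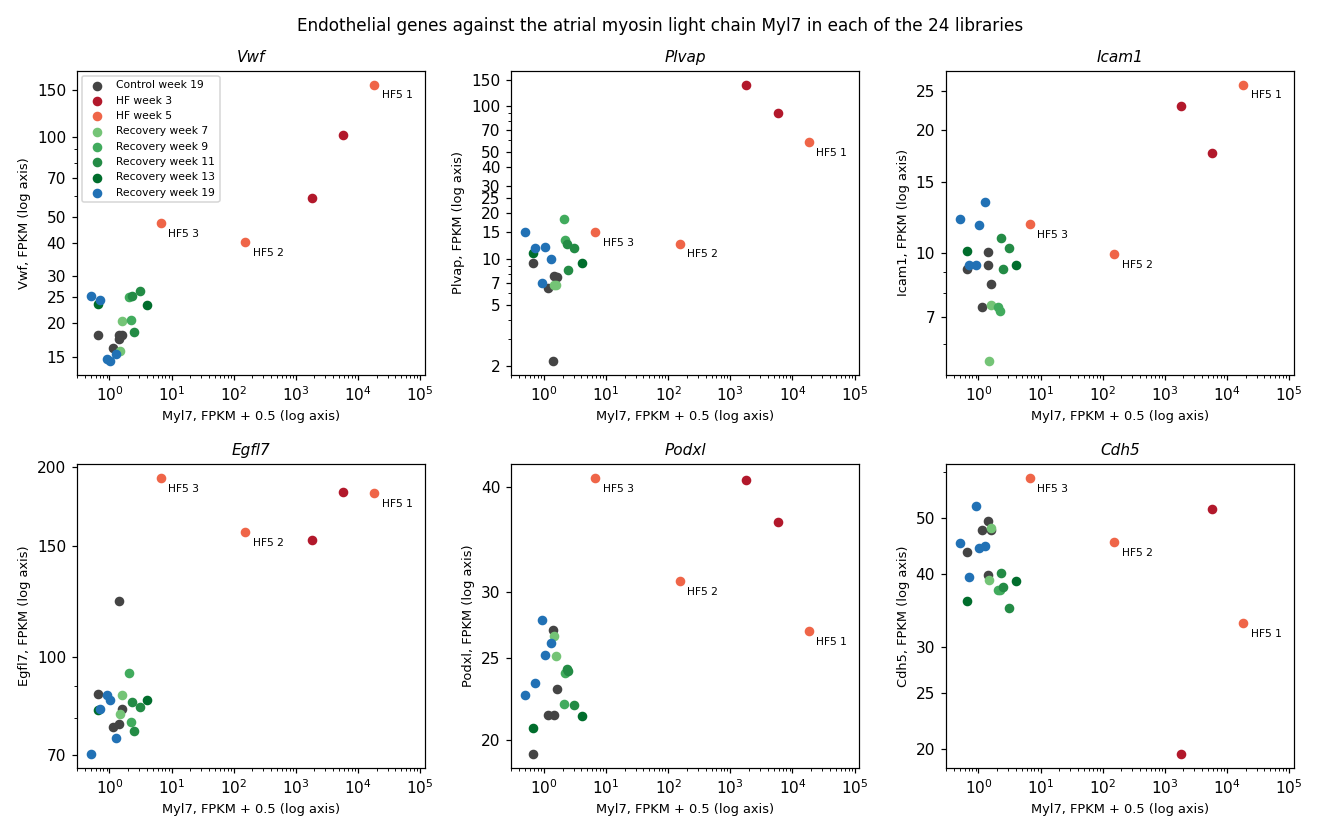
FPKM of 6 members against FPKM of the atrial gene Myl7 (log axes), 1 point per library, coloured by group. Vwf and Icam1 are highest in the library with the highest Myl7, while Egfl7 is as high in HF week 5 replicate 3, where Myl7 was 6.16 FPKM, as in replicate 1.

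A second list of 26 endothelial genes outside the members, 25 of them in the table and tested, gave 5 higher and 0 lower, with a median of 0.34. These were the complement-related receptor Cd93 (1.02 log2), Nos3, the endothelial nitric oxide synthase that L-NAME inhibits (0.83), the angiopoietin receptor Tek (0.81), Ecscr (0.81) and Mmrn2 (0.55). Cd93 was at 16.4, 16.2 and 22.4 FPKM in HF week 5 and at 7.85 to 11.2 FPKM in the controls. Without replicate 1, 7 of the 25 were higher, Cd93, Tek and Mmrn2 among them and Nos3 and Ecscr not.

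Genes of other cells moved in the same comparison. Of 3 atrial genes tested, 3 were higher (median 7.09). Replicate 2 stays in when replicate 1 is left out, and its Myl7 level was also above the controls. Of 10 fibroblast genes 7 were higher (median 0.67; Postn 1.81, Fbln1 1.19, Dcn 0.95 and Lum 0.86 log2), their sum being 485 to 1033 FPKM in HF week 5 and 355 to 489 FPKM in the controls. Without replicate 1 only Postn was. Of 10 smooth muscle and pericyte genes 5 were higher and 1 lower (Cnn1 1.44, Acta2 0.96, Tagln 0.85 and Abcc9 -0.83 log2), and without replicate 1 it was 3 higher (Acta2, Cspg4 and Pdgfrb) and 0 lower. Of 6 mesothelial genes 5 were higher, also without replicate 1 (Msln 4.00, Upk3b 4.00, Krt19 3.22 and Krt18 2.39 log2 with all libraries). Of 10 cardiomyocyte genes 0 were higher and 1 was lower (Pln -0.87 log2). Myh6, among the 10, was listed at 0 in both groups and could not be called. Of 10 macrophage and leukocyte genes 0 were called (median 0.43). The lymphatic list had 1 of 6 higher (Pdpn 0.99 log2, a gene mesothelium also expresses), the immediate early list 1 of 10 (Atf3 1.54 log2, in which the groups overlapped) and the erythroid list 0 of 3. Without replicate 1, Pln, Pdpn and Atf3 were not called either. The part of these cells in the members' levels was not tested.

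The second comparison asked whether the levels returned, Recovery week 19 against HF week 5. It shares the HF week 5 libraries with the first. The Recovery week 19 mice were 14 weeks older than the HF week 5 mice, so age and recovery cannot be told apart here. Of the 33 members 7 were lower and 0 higher, where 12% of all genes tested were lower and 12.3% higher. At the unadjusted p, 14 were lower (19.3% of all genes). The ranges of the groups did not overlap for 7 members, all lower (12.7% of all genes). The lower members were Vwf, Egfl7, Emcn, Cldn5, Efnb2, Esam and Podxl, and the median over the members was -0.31, against -0.04 over all genes. Of the other lists, 6 of 6 mesothelial genes (median -2.75), 3 of 3 atrial genes (-7.66) and 3 of 10 fibroblast genes were lower, and of 10 smooth muscle and pericyte genes 6 were lower and 2 higher. The platelet, lymphatic and immediate early lists each had 1 lower, the cytokine list 2, and the macrophage and erythroid lists 0. The cardiomyocyte list had 1 higher, and its Myh6, listed at 0 in both groups, could not be called. Without HF week 5 replicate 1, the mesothelial list had 5 lower, the fibroblast list 1 lower (Postn) and 1 higher (Tcf21), the smooth muscle and pericyte list 5 lower and 0 higher, and the platelet, lymphatic and cardiomyocyte lists 0. The part of these cells in the members' values was not tested. Without HF week 5 replicate 1 there were 7 lower as well, with Gja4 in place of Cldn5 (5.27% of all genes lower), and 9 with HF week 3 also left out of the fit (10.3% of all genes), Cldn5, Gja4 and Icam2 among them. Without HF week 5 replicate 2, 13 members were lower (10.9% of all genes).

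By role, 4 of the 6 mucin, diaphragm, secreted and channel genes fell. Vwf was at 14.7, 25.4, 14.5, 15.4 and 24.5 FPKM in Recovery week 19, below every HF week 5 library, and fell by 1.85 on the log2 scale (SE 0.31, limma adjusted p = 0.000504), or by 1.24 without HF week 5 replicate 1. Egfl7 was at 87.0, 70.2, 85.5, 74.6 and 82.8 FPKM and fell by 1.14 (SE 0.13, limma adjusted p = 2.85e-05), or by 1.12 without that library. Emcn was at 24.9, 28.8, 25.8, 24.7 and 36.1 FPKM and fell by 1.14 (SE 0.20, limma adjusted p = 0.00075), or by 0.95 without it. In these genes no Recovery week 19 library reached the lowest HF week 5 library. Podxl fell by 0.37 (limma adjusted p = 0.0316), a call lost in 5 of the 20 other settings, with the highest limma adjusted p, 0.239, without HF week 5 replicate 3.

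Plvap was at 6.93, 15.1, 12.01, 10.03 and 11.8 FPKM in Recovery week 19. This range overlapped HF week 5 replicates 2 and 3, and the difference was -1.01 log2 (limma adjusted p = 0.0821).

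Cldn5 was at 39.2, 48.3, 30.2, 30.7 and 43.0 FPKM, below HF week 5 (-0.91 ± 0.26 log2, limma adjusted p = 0.0163), with the call lost without replicate 3 (limma adjusted p = 0.0831). Esam was at 54.2, 47.8, 48.7, 49.5 and 53.4 FPKM, also below it (-0.50 log2, limma adjusted p = 0.017), with the call lost without replicate 3 (limma adjusted p = 0.103). Efnb2 was at 4.31, 3.02, 3.57, 4.00 and 2.89 FPKM (-0.65 ± 0.15 log2, limma adjusted p = 0.00456). The ranges of all these genes lay apart from HF week 5. Of the 7 members, Emcn, Egfl7, Vwf and Efnb2 were called lower in each of the 20 other settings, the genes that were called in both comparisons throughout.

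Members without a call had differences of both signs. Cdh5 was at 52.4, 45.4, 44.4, 44.9 and 39.6 FPKM in Recovery week 19, within the HF week 5 range. Pecam1 was at 48.8, 55.3, 49.3, 54.2 and 55.0 FPKM, which overlaps HF week 5 through its replicate 2. Icam1 was at 9.38 to 13.4 FPKM and Vcam1 at 6.56 to 9.48 FPKM, ranges that hold HF week 5 replicates 2 and 3. Klf2 was at 194, 320, 79.1, 124 and 114 FPKM and Klf4 at 40.5, 44.3, 16.7, 24.7 and 13.3 FPKM, with the highest values of both in replicate 2. Sele (0.0454 to 0.142 FPKM) and Selp (0.0684 to 0.252 FPKM) stayed near 0. In the second list of endothelial genes, 7 of 25 were lower and 0 higher, with a median of -0.33. Without HF week 5 replicate 1 it was 5 lower and 1 higher, with a median of -0.44.

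Against their own age controls, the Recovery week 19 mice had 0 of 33 members called by limma at the adjusted p, where 0.0235% of all genes tested were. At an unadjusted p under 0.05, 2 members were higher (2.01% of all genes), Vcam1 by 0.47 ± 0.18 log2 and Plvap by 0.78 ± 0.36 log2, each with a limma adjusted p of 1.0. All 5 Recovery libraries exceeded all 5 controls in Vcam1 and in Pecam1, as in 0.925% of all genes. The 95% interval of the difference was -0.51 to 0.62 log2 for Vwf, -0.39 to 0.09 for Egfl7, -0.55 to 0.19 for Emcn, -0.55 to 0.39 for Cldn5 and -0.27 to 0.27 for Efnb2. For Plvap it was 0.03 to 1.54 log2. Control week 19 replicate 5, at 2.15 FPKM, was the lowest library in Plvap.

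Earlier in recovery, weeks 7 to 13 against HF week 5, 13 members were lower and 0 higher (10.9% of all genes lower and 11.2% higher). They were the 7 that were lower at week 19, and with them Pecam1, Eng, Icam1, Nr2f2, Plvap and Mcam. Centring each library on its median gave 9 lower, and quantile normalization 13. Weeks 7 to 13 also differed from the groups of weeks 5 and 19 in the share of the 10 highest genes and the listed Myh6 zeros. The part of this in the members' levels was not tested. Without HF week 5 replicate 1, 8 were lower (3.93% of all genes), with Pecam1, Esam, Mcam, Eng, Emcn, Plvap, Icam1 and Nr2f2 no longer called and Gja4, Tie1 and Sox18 called. With HF week 3 also left out of the fit, 14 were lower (8.25% of all genes), Pecam1, Esam, Mcam and Emcn again among them. With all libraries, 6 of 6 mesothelial genes (median -2.71), 3 of 3 atrial genes (-6.64) and 2 of 10 fibroblast genes were lower, 5 of 10 smooth muscle and pericyte genes were lower and 1 higher, and 2 of 10 cardiomyocyte genes were higher, of which Myh6 rests on its listed 0 in HF week 5. Without replicate 1 these were 5, 3 and 0 lower, 7 lower and 0 higher, and only Myh6 of the cardiomyocyte list. Their part in the members' values was not tested, and these mice too were older than those of HF week 5. Vwf had fallen to 15.8 and 20.5 FPKM at week 7 and ranged from 15.8 to 26.3 FPKM over the 9 libraries, with a median of 23.4. Cldn5 was lowest here, at 29.4 and 22.1 FPKM at week 7, 19.6 and 39.4 FPKM at week 9, 33.4, 29.9 and 34.8 FPKM at week 11, and 40.97 and 24.5 FPKM at week 13 (-1.27 ± 0.24 log2 against HF week 5, limma adjusted p = 0.00114). Egfl7 was between 76.3 and 94.3 FPKM in all 9.

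Against the controls, the weeks 7 to 13 had 0 of 33 members called (0.0549% of all genes higher and 0.0157% lower). At an unadjusted p under 0.05, limma gave 4, with Cldn5 lower and Ramp2, Plvap and Vcam1 higher (3.53% of all genes lower and 3.36% higher). Against Recovery week 19, 0 members were called (0.0314% of all genes higher and 0.00784% lower), and 4 were lower at the unadjusted p (Pecam1, Icam1, Sox7 and Sox18; 4.01% of all genes). These recovery weeks were not separated further, since each holds 2 or 3 libraries. Their mice were younger than those of Control week 19 and Recovery week 19.

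**Figure D5:**
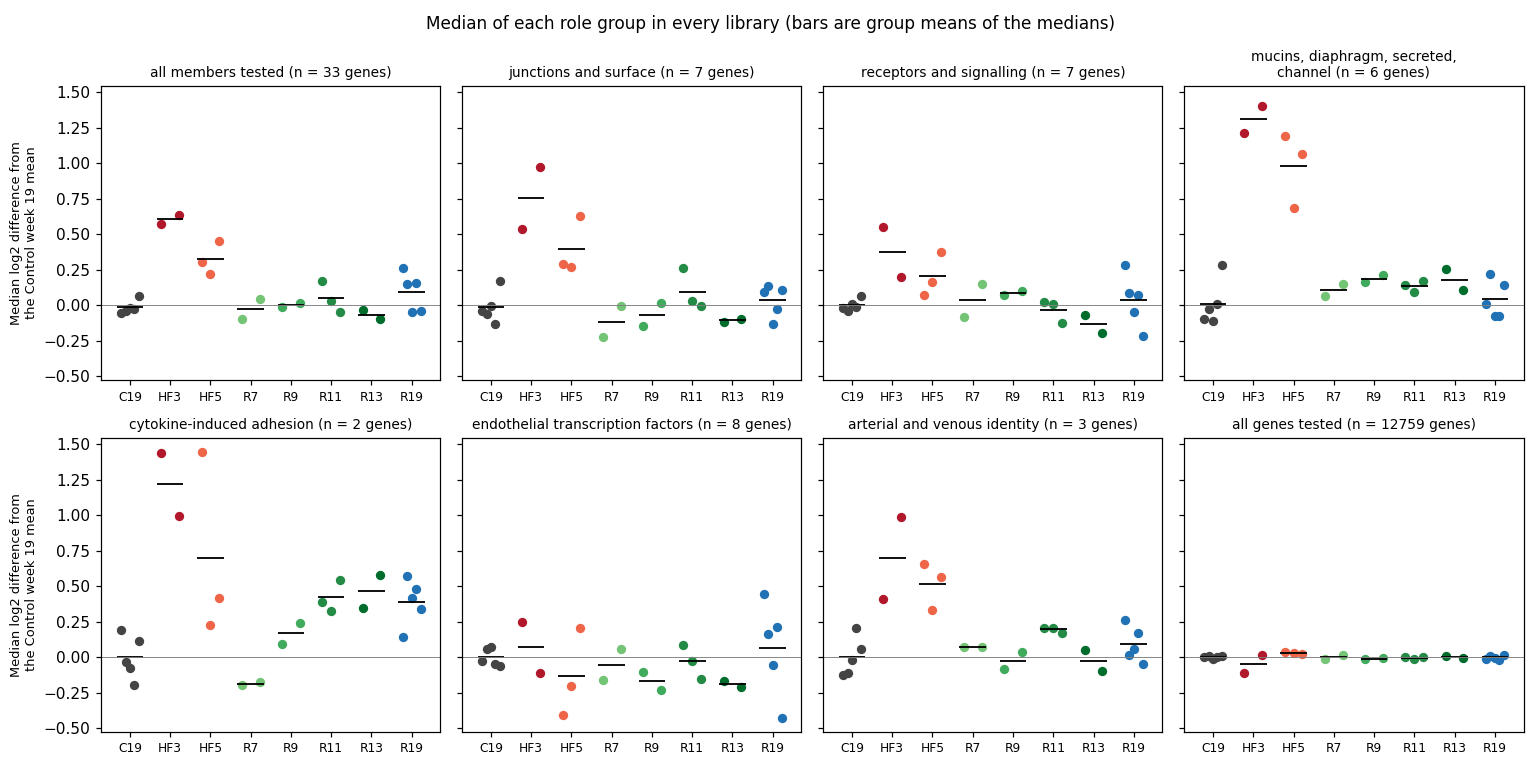
Median difference from the mean of the controls (log2 of FPKM + 0.5) over the members of each role, 1 point per library, in the order of the groups in time. The mucin, diaphragm, secreted and channel genes are highest in HF week 3 and HF week 5 and lie near 0 from week 7 to week 19.

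HF week 3 rests on 2 libraries, both high in atrial and mesothelial genes, and its values are a description of these libraries in the first place. The replicates differed by over 2 times in 10 members, as in 35.8% of all genes tested. In replicate 1, 12816 genes had a value over 0, where every other library had between 16339 and 18091, and the r between the replicates was 0.885, against 0.952 or more within the other groups. Cdh5 was at 19.6 and 52.0 FPKM, Rasip1 at 149 and 22.6 FPKM, Klf2 at 359 and 70.7 FPKM and Sox17 at 34.0 and 12.7 FPKM. The HF week 3 mice were younger than the controls, so age and treatment cannot be told apart here. Against the controls 20 members were higher and 1 was lower (23.1% of all genes higher and 27.6% lower). All 14 members that were higher in HF week 5 were among the 20, and both comparisons share the controls. The other 6 were Esam, Mcam, Tie1, Rasip1, Aqp1 and Tal1. Of the other lists, 3 of 3 atrial genes, 5 of 6 mesothelial genes, 6 of 10 fibroblast genes (median 1.23) and 4 of 7 platelet genes (1.40) were higher. The smooth muscle and pericyte list had 4 higher and 1 lower of 10, the macrophage list 2 and 1, the lymphatic list 2 and 2, the cytokine list 2 and 1, the immediate early list 0 and 3, the erythroid list 0, and the second list of endothelial genes 10 and 2 of 25. The cardiomyocyte list had 5 of 10 lower and 1 higher (median -0.57), the higher one being Myh6 against the listed 0 of the controls. The part of these cells in the members' values was not tested.

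Plvap had the largest difference of the members in HF week 3, at 139 and 90.3 FPKM, 17.1 times the mean of the controls (4.09 ± 0.48 log2, limma adjusted p = 2.17e-06). Vwf was at 59.2 and 102 FPKM, Emcn at 93.7 and 108 FPKM and Egfl7 at 154 and 183 FPKM, each pair above all controls. Esam was at 204 and 113 FPKM and Cldn5 at 189 and 85.6 FPKM, both higher in replicate 1. Klf4, at 5.09 and 11.7 FPKM, was the member that was lower (-1.45 log2, limma adjusted p = 0.0036), and it was not called without replicate 1 (limma adjusted p = 0.154). With 1 library left in the group, the spread comes from the other groups, and the lone library is assumed to vary like them. Without replicate 1, 18 members were higher and 0 lower (14.5% and 15.6% of all genes). Tal1, Rasip1 and Aqp1 were then not called and Ephb4 was. Without replicate 2, 18 were higher and 3 lower (27.3% and 35.6% of all genes). Pecam1, Aqp1, Efnb2 and Nr2f2 were then not higher, Sox17 and Klf2 were, and Cdh5, Icam2 and Klf4 were lower, so 11 of the 14 remained. Selp reached the highest level among the 24 libraries here, at 0.999 and 0.499 FPKM, and Sele was at 0 and 0.0435 FPKM.

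Between the HF groups, 4 members were lower at week 5 than at week 3 and 0 were higher (8.28% of all genes lower and 13.1% higher). At the unadjusted p, 11 were lower and 3 higher (15.4% and 23.7% of all genes). The 4 were Plvap (-2.30 ± 0.52 log2), Rasip1 (-1.33 ± 0.42), Gja4 (-1.12 ± 0.24) and Esam (-1.08 ± 0.18), with limma adjusted p of 0.00876, 0.0332, 0.00708 and 0.00124. With the same assumption for a lone HF week 3 library, the count without HF week 3 replicate 1 was 2 (0.865% of all genes lower), Esam and Gja4, and the Rasip1 difference was 0.02 log2. Without HF week 3 replicate 2 it was 14, 10 lower and 4 higher (21.3% and 31.7% of all genes), and without HF week 5 replicate 1 it was 9 (9.33% of all genes lower), Vwf, Emcn, Eng, Icam1 and Vcam1 among them. With all libraries, 4 of 6 mesothelial genes (median -2.08) and 4 of 10 fibroblast genes were lower and 4 of 10 cardiomyocyte genes were higher and 1 lower, Myh6, through its listed 0. The atrial genes had a median of -4.21 with 0 of 3 called, and 3 of 3 were lower without HF week 5 replicate 1. Their part in the members' values was not tested.

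Over the 24 libraries, the genes whose log2 levels ran most like those of Cdh5 were Il15ra, Tmem86b, Mobkl1a, Tmc8 and 4931406P16Rik (Pearson's r 0.87, 0.87, 0.87, 0.86 and 0.86). Among the members, Robo4 (r 0.61), Klf4 (0.59) and Sox18 (0.56) were the most like it, and the r with Pecam1 was 0.00. For Vwf the most alike were Rab33a, Mustn1, 2200002D01Rik, Myl1 and Fetub (r 0.95, 0.95, 0.94, 0.94 and 0.93), and among the members Emcn (0.88), Eng (0.87) and Egfl7 (0.84). These points share the HF groups and the libraries that stood apart. Over the 21 libraries without HF week 3 and HF week 5 replicate 1, the r of Vwf was 0.74 with Emcn, 0.37 with Eng and 0.70 with Egfl7. The r of Vwf with the atrial gene Myl7 was 0.92 over 24 libraries and 0.63 over the 21, and with the mesothelial genes Upk3b, Krt19 and Msln it was 0.92, 0.89 and 0.90 over 24 and 0.74, 0.72 and 0.67 over the 21. Among the members, Cdh5 was most like Robo4 there too (r 0.75), and its r with Pecam1 was 0.42. Its r with Klf4 was 0.32 over the 21, while Rasip1 went from -0.60 to 0.72 and Tie1 from -0.02 to 0.70.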

How the data were processed

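Paired-end libraries of poly(A)-enriched RNA were aligned with TopHat2 to mm9, per the labels, and the deposited table gives the FPKM that the authors calculated with Cuffdiff. Its scaling and annotation and the strand of counting are not given in the sources used here. Of the columns, 24 in 8 groups were used; 5 columns, named as week 5 controls, of which 4 samples are labelled, were not used here. Recovery week 9 has 2 columns for 3 labelled samples. Replicate numbers name columns only.

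Values were taken as log2(FPKM + 0.5), for the 12759 genes whose mean level reached 0.5 FPKM. limma 3.58.1 in R 4.3.3 fitted a mean per group (eBayes with trend, 16 residual degrees of freedom), two-sided, with Benjamini-Hochberg adjustment over all genes tested. A gene was called at an adjusted p under 0.05. Python 3.11.15 with numpy 2.4.6, pandas 2.3.3, scipy 1.17.1 and matplotlib 3.10.9 made summaries and plots. Absolute depth is unknown.

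The members and the other gene lists were chosen with earlier results of these data known, and the atrial list after its values were seen. Members that were called with groups apart in HF week 5 against Control week 19 or Recovery week 19 against HF week 5, at most 12, were named, as were Cdh5, Pecam1, Icam1, Vcam1, Sele, Selp, Vwf, Klf2 and Klf4, with values by library or as ranges. Of each other list at most 4 called genes were named, and the 5 genes most like Cdh5 and Vwf. Alternatives were the pseudocount, the minimum level, the scaling, the eBayes options, the groups in the fit, the threshold and each library left out; the fits with HF week 5 replicates 2 and 3 only, or 3 only, were added after seeing the data.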

Additional observations from a re-analysis of the deposited data

Results flagged for a closer look

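In groups of 5 libraries, a value was listed when its gap to the nearest library was large against the range of the group, a rule that chance meets in about 1 in 20 groups. Of 66 such groups of members (33 members in Control week 19 and Recovery week 19), 6 were listed, all of them replicate 5 as the highest library. In Control week 19 replicate 5 they were Emcn at 53.4 FPKM (others 25.1 to 29.5), Egfl7 at 123 FPKM (others 77.7 to 87.6), Icam2 at 46.7 FPKM (others 26.1 to 29.7) and Aqp1 at 283 FPKM (others 210.2 to 226). In Recovery week 19 replicate 5 they were Icam2 at 46.2 FPKM (others 22.98 to 29.0) and Eng at 93.9 FPKM (others 72.2 to 78.3). Leaving out Control week 19 replicate 5 gave 17 members higher in HF week 5 in place of 14, with 14.2% of all genes higher in place of 11.6%.

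Differences between the HF groups, measured against each other by limma, were Esam -1.08 log2, Gja4 -1.12 log2, Plvap -2.30 log2 and Rasip1 -1.33 log2 at week 5 against week 3. HF week 3 holds 2 libraries, and Rasip1 rests on replicate 1 alone.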

How the results depend on the processing

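For single members in HF week 5 against Control week 19, 599 of 660 values over 20 other settings kept their side of the threshold, 39 lost the call and 22 gained one. Among the 599, 17 values of 8 members changed sign, Cdh5 and Sox18 among these members, with no call under either setting, and 0 called values changed sign. For Recovery week 19 against HF week 5, 630 of 660 kept their side, 8 lost the call and 22 gained one, and 23 uncalled values of 10 members and 0 called ones changed sign. Leaving out 1 library at a time gave 7 to 17 members called in HF week 5 against Control week 19 (7 without HF week 5 replicate 1), 6 to 13 in Recovery week 19 against HF week 5 (13 without HF week 5 replicate 2), 18 to 21 in HF week 3 against Control week 19, 2 to 14 in HF week 5 against HF week 3 and 8 to 15 in Recovery weeks 7 to 13 against HF week 5. It gave 0 in the comparisons of the recovery groups with the controls and with each other. At an unadjusted p, Recovery week 19 had 14 members against HF week 5 and 2 against the controls, HF week 5 had 14 against HF week 3, and Recovery weeks 7 to 13 had 4 against the controls and 4 against Recovery week 19. In HF week 5 against HF week 3, quantile normalization gave 7 and a fit of these 2 groups alone 0, with fewer samples to estimate the spread. That fit gave 1 for Recovery weeks 7 to 13 against the controls. No paired analysis was possible because the columns carry no replicate letters of the labels. FPKM carry no counts, so no counting interval can be given, and the difference of a low gene is understated by the pseudocount.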
